A study of Gallus gallus with 77 samples.

Results

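*GATA3*, a zinc finger transcription factor, and *FOG2*, a cofactor of GATA factors, were followed through the first hours after laser injury of the chick cochlea. They are 2 of the 1507 genes on the array, found by their names in the files, and each was read by 2 spots of 1 probe. The pair was chosen by a search in which the laser over control ratios of these same arrays were already known. Those ratios are therefore described here without a test. Both genes passed the filter on low signal, as did 1504 of 1507 genes.

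Sensory epithelia (SE) were isolated from cochleae of post-hatch White Leghorn chicks, grown in culture and wounded along lines with a pulsed laser microbeam. RNA of lesioned cultures was taken at 4 times after the wound, at 30 min and at 1, 2 and 3 hrs. RNA of unlesioned cultures of the same age and time, kept beside the microscope during the lesions, was the control. Each time point had 2 biological replicates, each made from pooled cultures, and RNA was amplified before labelling. Laser and control cDNA were hybridized together, 1 in Cy3 and 1 in Cy5, to 50 mer probes designed for human genes. Dyes were switched, so that Cy3 marked the lesioned sample on 38 arrays and Cy5 did so on 39. There were 25 arrays for 30 min, 17 for 1 hr, 15 for 2 hrs and 20 for 3 hrs. Arrays of a replicate are repeat hybridizations and were averaged.

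GATA factors bind the sequence GATA in promoters and enhancers through a pair of zinc fingers. *GATA3* is needed for the formation of the inner ear in the mouse, and loss of a copy causes deafness in humans as part of a syndrome with parathyroid and kidney defects. *FOG2*, now named *ZFPM2*, has several zinc fingers of its own and binds GATA factors rather than DNA. From the mouse it is known for heart and gonad development, where it changes what a GATA factor does at its targets, often as a corepressor.

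Signal quality differed between the time points. The median array had a signal of 5.57 times its local background after 30 min, against 2.74, 2.98 and 3.05 times in the later groups (1 hr, 2 hrs, 3 hrs). The gene spots had a median signal of 1221 after 30 min and then of 2868, 1956 and 1387, against 854.3, 2098, 1953 and 1307 for the control spots of the same arrays. Markers of the cell types that such cultures could hold were also on the array, 4 of 6 for hair cells, 12 of 12 for supporting cells, 8 of 10 for mesenchyme, 4 of 5 for neurons and 6 of 7 for blood cells. A signal of at least 1000 in 80% of the arrays of each time point was reached by 449 of the 1507 genes. It was reached by 3 of the 12 supporting cell markers, *HEY2* and *ID1* among them, and by *FOXC2* of the 8 mesenchyme markers. *NEUROG1* and *POU4F1* of the 4 neuron markers reached it too. No hair cell or blood cell marker reached it at every time point, and the mesenchyme marker *MEOX2* did so at none. These counts are too small to set against the share of all genes. The median control spot itself lay above 1000 at 1 hr, 2 hrs and 3 hrs. Reaching that signal therefore does not show that a marker was expressed. The median laser over control ratio of a marker list lay between −0.09 and 0.06 on the log2 scale at every time point. By staining for N-cadherin the study found that such cultures held few cells from outside the sensory epithelium. The epithelium itself holds hair cells and supporting cells, so fewer cells of a type and less RNA per cell cannot be told apart.

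The signal of *FOG2*, as the mean of both channels, was at least 1000 on every array at all 4 time points. At 30 min the *FOG2* spots gave a median signal of 2358 in the laser channel (954.1 to 5496 over 25 arrays) and 2260 in the control channel (829.2 to 5953). At 3 hrs the medians were 2282 in the laser channel (1309 to 3957, 20 arrays) and 1971 in the control channel (1131 to 3402). At 2 hrs the order was the other way, with 2155 in the laser channel (1625 to 3958, 15 arrays) and 3066 in the control channel (1735 to 5862). At 1 hr they were 3211 in the laser channel and 3111 in the control channel. The mean of both channels was above the median control spot on 25 of 25, 17 of 17, 13 of 15 and 20 of 20 arrays in the order of time. Fewer arrays were above the 95th percentile of the control spots. In the laser channel these were 11 of 25, 6 of 17, 5 of 15 and 15 of 20. In the control channel they were 14 of 25, 5 of 17, 6 of 15 and 4 of 20. The ratios of *FOG2* thus also rest in part on signals that the upper control spots reach.

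The signal of *GATA3* stood less clearly above the control spots at the later times. Its median was 2734 in the laser channel (646.5 to 10940) and 2337 in the control channel (350.8 to 8019) at 30 min, where it was 10.8 and 13 times the local background. At 1 hr the medians were 3159 and 2914 in the laser and control channels, or 3.41 and 3.58 times the background. At 2 hrs they were 1578 (504 to 3894) in the laser channel and 1581 (441.5 to 3647) in the control channel, 2.07 and 2.66 times the background. At 3 hrs they were 1270 (328.6 to 2672) in the laser channel and 1450 (329.1 to 4410) in the control channel. In the order of time, the mean of both channels was at least 1000 on 96%, 94.1%, 66.7% and 65% of the arrays. That mean was above the median control spot of the array on 23 of 25, 13 of 17, 7 of 15 and 11 of 20. Above the 95th percentile of the control spots were 13 of 25, 3 of 17, 1 of 15 and 0 of 20 arrays in the laser channel. In the control channel these were 15 of 25, 3 of 17, 3 of 15 and 2 of 20. A ratio of *GATA3* at 1 hr, 2 hrs or 3 hrs thus rests on signals that many control spots also reach. No spot of either gene was saturated.

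*FOG2* had a mean laser over control ratio near 0 at the first 2 time points, of −0.32 at 2 hrs and of 0.53 at 3 hrs. The mean at 3 hrs was larger than the pooled SD between replicates and that at 2 hrs was not. All ratios are on the log2 scale, with normexp background correction and loess, 1 value per biological replicate, and the SD between replicates pooled over time points was 0.328. Standard errors are those of the limma fit, which draws the spread of a gene toward that of all tested genes. They are smaller than the SD of 0.328 alone would give and are no test of these ratios. At 30 min replicate 1 was at −0.10 and replicate 2 at 0.10, and at 1 hr they were at −0.05 and 0.10. At 2 hrs replicate 1 was at −0.03 and replicate 2 at −0.62, with a mean of −0.32 (standard error 0.147, 0.8-fold). At 3 hrs replicate 1 was at 0.20 and replicate 2 at 0.87, with a mean of 0.53 (standard error 0.147, 1.44-fold). The SD of the replicates of a time point was 0.143, 0.1, 0.418 and 0.474 in the order of time. The pooled SD is thus smaller than the SD at 2 hrs or at 3 hrs alone. The replicates shared a sign only at 2 hrs and 3 hrs, and at both it was replicate 2 that set the size of the mean.

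**Figure D1:**
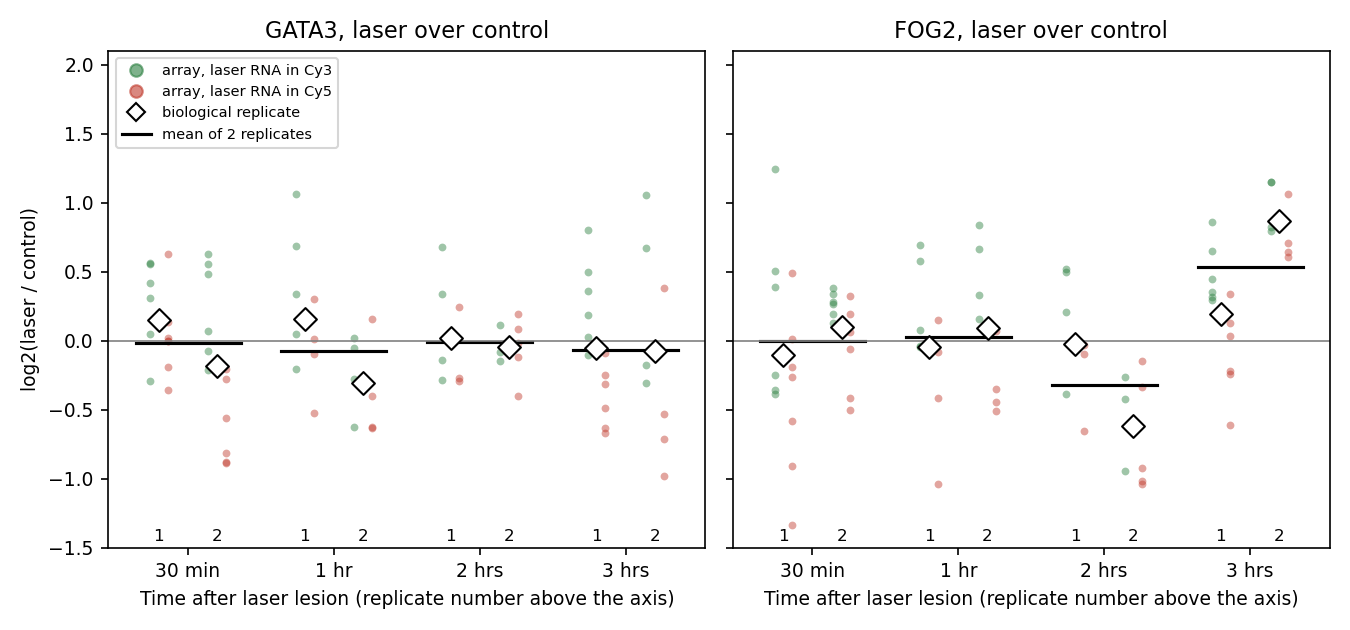
Laser over control log2 ratios of *GATA3* (left) and *FOG2* (right) at 4 times after the lesion. Small points are single arrays, green for laser cDNA in Cy3 and red for laser cDNA in Cy5, diamonds are the 2 biological replicates of each time and bars their mean. For *FOG2* at 3 hrs, all 8 arrays of replicate 2 lie above 0, and at 2 hrs all 8 of replicate 2 lie below 0, while the *GATA3* replicates stay between −0.30 and 0.15.

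In replicate 2 the ratio of *FOG2* kept its sign in both orientations at 2 hrs and 3 hrs, though single arrays differed in size. It did not do so at 30 min (0.27 where Cy3 marked the laser sample and −0.07 where Cy5 did) or at 1 hr (0.50 and −0.31). At 3 hrs its arrays with laser cDNA in Cy3 read 1.15, 0.82, 0.79 and 1.15, and those with laser cDNA in Cy5 read 0.64, 1.06, 0.61 and 0.71. Both orientations were thus above 0, with means of 0.98 and 0.75. At 2 hrs the arrays of replicate 2 with laser cDNA in Cy3 read −0.94, −0.42 and −0.26, and the Cy5 ones read −0.92, −1.02, −0.15, −0.33 and −1.04. Taken by the day of image analysis that the file headers give, replicate 2 was at 0.92 and 0.81 on the 2 days of the 3 hr arrays, and at −0.43 and −0.96 on the 2 days of the 2 hr arrays. At 30 min it was at 0.19 and −0.09 on its 2 days.

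Replicate 1 of *FOG2* gave smaller ratios. At 3 hrs its 6 arrays with laser cDNA in Cy3 were all above 0 (mean 0.49), whereas 3 of 6 with laser cDNA in Cy5 were (mean −0.09). By day, replicate 1 was at 0.12 and 0.23. At 2 hrs the orientations had opposite signs, 0.21 where Cy3 marked the laser sample and −0.26 where Cy5 did, and by day the ratio was −0.08 and −0.07. Over all arrays, 17 of 20 were above 0 at 3 hrs (−0.61 to 1.15, median 0.53) and 12 of 15 were below 0 at 2 hrs (−1.04 to 0.52, median −0.33).

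The level of *FOG2* was also read in each RNA apart, without loess. Such levels moved with array and day, so they cannot assign a ratio to a single channel. Levels are log2 signals minus the median of the channel on the array. In replicate 2 the level at 3 hrs was 1.83 in laser RNA and 0.98 in control RNA, and at 2 hrs it was 0.29 in laser RNA and 0.89 in control RNA. In replicate 1 it was 1.05 in laser RNA and 0.86 in control RNA at 3 hrs, and 0.65 and 0.68 at 2 hrs. The 8 control levels lay between 0.47 and 1.18, and the laser levels fell outside that range in replicate 2 at 30 min (1.28), 2 hrs and 3 hrs. Yet the laser over control ratio of replicate 2 at 30 min was only 0.10.

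*GATA3* had no mean ratio as far from 0 as the SD between replicates pooled over the time points. At 30 min replicate 1 was at 0.15 and replicate 2 at −0.18, at 1 hr they were at 0.15 and −0.30, at 2 hrs at 0.02 and −0.04. The replicates at 3 hrs were at −0.06 and −0.08. The means were −0.02, −0.08, −0.01 and −0.07 in the order of time, against a pooled SD between replicates of 0.202. Their standard error in the limma fit was 0.107 each, likewise drawn toward the spread of all tested genes. The replicates at 3 hrs alone had an SD of 0.0138, which is smaller than their mean. The 4 means are folds of 0.989, 0.949, 0.992 and 0.956. The study itself lists *GATA3* as lower in the lesioned cochlea at 2 hrs, on its arrays and by qPCR on new samples. The mean of −0.01 at 2 hrs given here does not show that decrease, and the reason was not tested. With plain background subtraction that mean was −0.23, the 1 alternative that moved it by more than the pooled SD. The 13 other alternatives stayed within that SD of −0.01. The replicates had the same sign at 3 hrs alone. Single arrays ran from −0.88 to 0.63 at 30 min (median −0.003), from −0.63 to 1.06 at 1 hr (median −0.06), from −0.40 to 0.68 at 2 hrs (median −0.08) and from −0.98 to 1.05 at 3 hrs (median −0.14). Of 77 arrays, 12 of 25, 8 of 17, 6 of 15 and 8 of 20 were above 0.

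The mean ratio of *GATA3* over replicates was above 0 in one orientation and below 0 in the other at each time point. In the order of time it was 0.25, 0.08, 0.06 and 0.30 where Cy3 marked the laser sample, and −0.285, −0.23, −0.08 and −0.43 where Cy5 did. Single replicates did not always follow this, and 3 of 8 had the same sign in both orientations. These were replicate 1 at 30 min (0.27 in the Cy3 orientation and 0.03 in the Cy5 orientation), replicate 2 at 1 hr (−0.24 and −0.37) and replicate 2 at 2 hrs (−0.04 and −0.05). At 3 hrs, replicate 1 had 5 of 6 arrays above 0 in the Cy3 orientation and 0 of 6 in the Cy5 orientation. By day the ratio of replicate 2 at 3 hrs was 0.12 on 1 day and −0.27 on the other, and that of replicate 1 was −0.03 and −0.07.

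The spots of each gene were compared as a check on the measurement. At 3 hrs both spots of *FOG2* had the same sign on 20 of 20 arrays and gave ratios of 0.50 and 0.56, and at 2 hrs they gave −0.31 and −0.33. The *GATA3* spots read −0.07 and −0.06 at 3 hrs, whereas their signs differed at 2 hrs (−0.09 and 0.06). The correlation between spots over the arrays of a time point was 0.924 at 1 hr and at 3 hrs and 0.41 at 2 hrs for *GATA3*, and 0.798 at 3 hrs and 0.465 at 2 hrs for *FOG2*. Both spots of a gene share their array and the RNA on it.

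Which dye marked the laser sample comes from the array titles, and the image names in the file headers carry the same dye for 77 of 77 arrays. Once the Cy3 orientation had its sign changed, the orientations of a replicate nevertheless correlated at −0.64 to −0.24 over the tested genes. The direction is kept as the titles give it, and values with no array turned stand beside it. Without turning, which leaves Cy5 over Cy3, *FOG2* was at −0.20 at 3 hrs and −0.23 at 2 hrs, and *GATA3* at −0.37 at 3 hrs.

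After background correction and loess, and averaged over both orientations, both genes were read lower in Cy5 than in Cy3. This dye effect, the mean Cy5 over Cy3 log2 ratio of both orientations, is a contrast of its own and was tested. It was −0.21 for *GATA3* (standard error 0.0492, adjusted p = 0.00397, limma) and −0.23 for *FOG2* (standard error 0.0469, adjusted p = 0.0017, limma), below 0 in 8 of 8 replicates for each. Over all tested genes 39.2% had such a dye effect, so it is no mark of this pair, and by its size *GATA3* ranked 282 and *FOG2* 213 of 1504. The pair was chosen with earlier results of these data known. Its p-values for the dye effect and the control level may therefore depend on that choice. With plain subtraction of the background the dye effect of *GATA3* was −0.08 (adjusted p = 0.536, limma). With no background correction it was −0.0873 (adjusted p = 0.143, limma). With the day of image analysis as a random block that of *FOG2* was −0.21 (adjusted p = 0.0537, limma). In the deposited raw signal ratios the dye effect was 0.11 for *GATA3* and −0.0029 for *FOG2*, and neither passed.

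Over time, the dye effect of *GATA3* was −0.27, −0.15, −0.07 and −0.37 in the order of time, each with a standard error of 0.0984. It passed the test at 3 hrs (adjusted p = 0.03, limma). That of *FOG2* was −0.23, −0.35, −0.16 and −0.20, with a standard error of 0.0938, and passed at 1 hr (adjusted p = 0.0438, limma). The share of all tested genes that passed was 3.79%, 6.85%, 18.4% and 10.9% in the same order. A difference between the time points was not shown for *GATA3* (adjusted p = 0.514, moderated F-test in limma) or *FOG2* (adjusted p = 0.746), and 0.133% of tested genes had one.

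**Figure D2:**
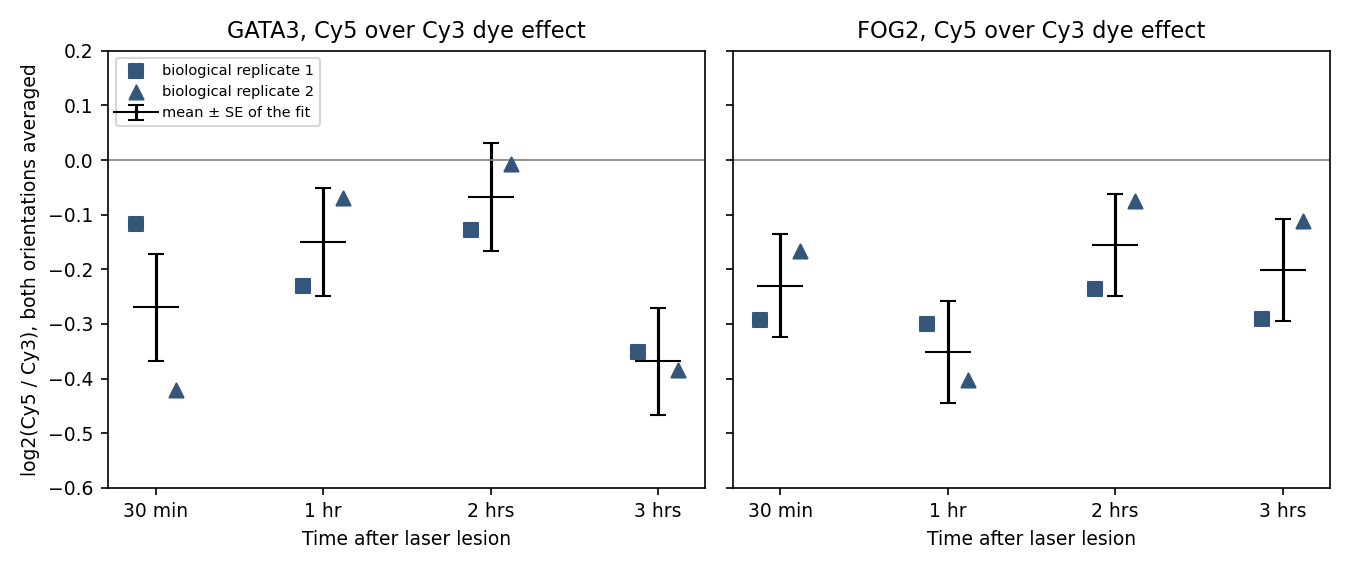
Dye effect of *GATA3* (left) and *FOG2* (right), as log2 Cy5 over Cy3 averaged over both orientations. Squares and triangles are biological replicates 1 and 2, and bars with whiskers are the mean and standard error of the fit at each time. All 16 replicate values lie below 0.

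In unlesioned cultures the level of *GATA3* was highest at 30 min, but its differences between times did not pass the test. The laser level was 0.97 and 1.54 in replicates 1 and 2 at 30 min, against control levels of 0.78 and 1.69. At 1 hr the laser levels were 0.68 and −0.19 and the control levels 0.49 and 0.13. At 2 hrs the laser levels were 0.23 and −0.90 and the control levels 0.27 and −0.78. At 3 hrs the laser levels were 0.05 and −0.30 and the control levels 0.14 and −0.31. In the order of the control means, 30 min (1.24) stood above 1 hr (0.31), 3 hrs (−0.08) and 2 hrs (−0.25), with a standard error of 0.27 each. Within replicate 1 at 30 min the control level differed by day of image analysis. Its arrays read −0.56, −0.67, −0.28 and 0.10 on day 9, and 2.14, 1.47 and 2.35 on day 11. On day 8 they ran from −0.75 to 1.75.

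The moderated F-test over the 4 control means of *GATA3* gave an adjusted p of 0.171 in limma, and 0.532% of tested genes passed it. The largest pairwise difference, 2 hrs minus 30 min, was −1.49 (standard error 0.381, unadjusted p = 0.00216, adjusted p = 0.107, limma). The difference of 1 hr minus 30 min was −0.93 (adjusted p = 0.229, limma), and neighbours in the order from 1 hr to 2 hrs differed by less than the SD between replicates of 0.533. Time points lie mostly on different days of image analysis. On the 2 days that hold both 1 hr and 2 hrs, the control level at 2 hrs was 0.07 against 0.56 at 1 hr on one, and 0.33 against −0.06 at 1 hr on the other. The former day held replicate 2 alone at 1 hr (3 arrays, SD 0.949) and replicate 1 alone at 2 hrs (4 arrays, SD 0.546). Time and replicate cannot be told apart on that day. On all other days, time and day cannot be told apart.

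The control level of *FOG2* was not shown to differ between times. Its means were 0.96, 0.65, 0.78 and 0.92 in the order of time, each with a standard error of 0.181 and an SD between replicates of 0.219. In the order of means (30 min, 3 hrs, 2 hrs, 1 hr) every neighbour differed by less than that SD. The F-test gave an adjusted p of 0.761 in limma, and the largest pairwise difference, 1 hr minus 30 min, was −0.30 (standard error 0.256, adjusted p = 0.572, limma). This does not show that the level was the same at all times. On the 2 days that hold both 1 hr and 2 hrs, the control level at 2 hrs was 0.41 against 0.38 at 1 hr on one, and 1.42 against 1.00 at 1 hr on the other. The days thus lay further apart than the SD between replicates. As for *GATA3*, the former day held replicate 2 alone at 1 hr and replicate 1 alone at 2 hrs.

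**Figure D3:**
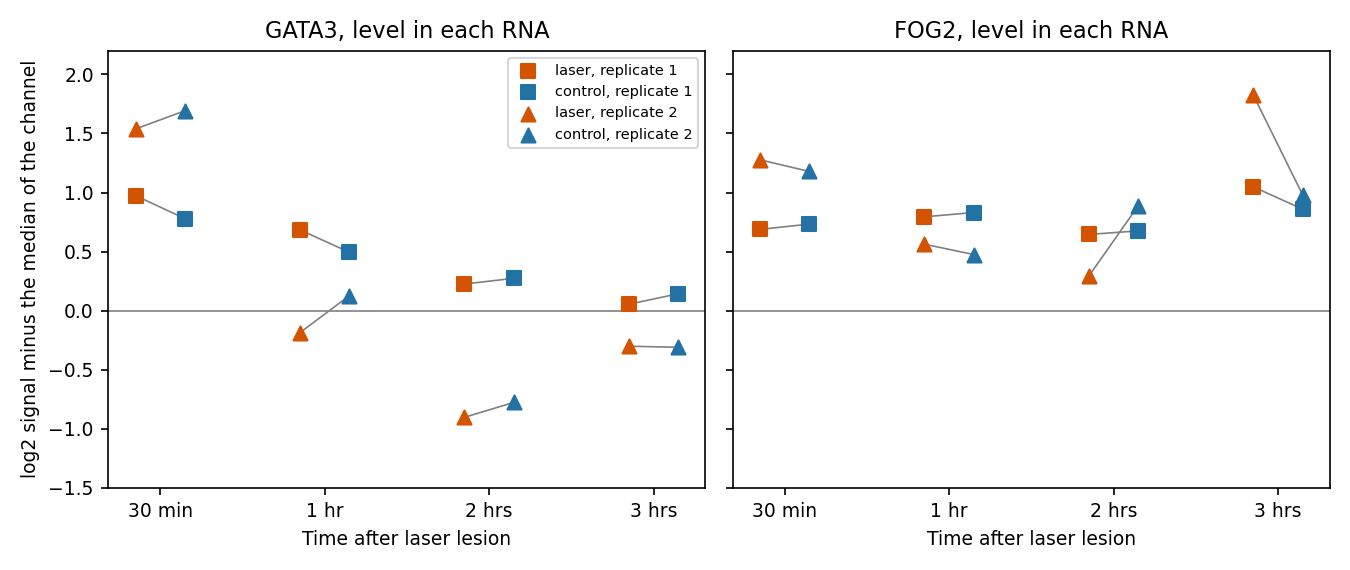
Level of *GATA3* (left) and *FOG2* (right) in laser RNA (orange) and control RNA (blue), as log2 signal minus the median of the channel. Squares are replicate 1, triangles replicate 2, and grey lines join the channels of a replicate. For *FOG2* the widest gaps are those of replicate 2 at 3 hrs (1.83 against 0.98) and at 2 hrs (0.29 against 0.89), and for *GATA3* both channels are highest at 30 min.

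Apart from *GATA3*, whose ratios were not tested, the GATA genes on the array were set against the threshold for laser over control, and none passed. *GATA1* and *GATA2*, known for blood cells, *GATA4* and *GATA6*, known for heart and gut, and *TRPS1*, an atypical GATA protein that acts as a repressor, make 5 of the 7 genes of this list. Their ratios ran from −0.11 to 0.18 at the 4 time points, and 0 of 5 passed an unadjusted p under 0.05 with over 1.2-fold at any time. Under the alternatives *GATA4* passed with no array turned, which leaves Cy5 over Cy3 and so is not a laser over control ratio. Without replicate 1 of 2 hrs, *TRPS1* was at 0.37 at that time. *GATA4* was at 0.01, −0.11, −0.09 and 0.04 in the order of time, and *TRPS1* reached 0.18 at 2 hrs (unadjusted p = 0.0892, limma), with replicates at −0.01 and 0.37. The same threshold was passed by 3.46%, 0.332%, 4.19% and 1.53% of tested genes in the order of time, and by 8.31% at 1 time or more. After adjustment over all tested genes 0% passed at any time. All lists were chosen with earlier results of these data known, so the p-values of their genes may depend on that choice. The median of the 5 genes was −0.05, −0.06, 0.07 and 0.04, against −0.0043, −0.0096, −0.014 and −0.00028 over all genes.

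Among the partners and corepressors of GATA and FOG proteins, 1 of 23 tested genes passed the unadjusted threshold. *CHD3*, an ATPase of the NuRD complex that FOG proteins recruit, had a ratio above 0 at 30 min (0.30, standard error 0.0888, unadjusted p = 0.00509, adjusted p = 0.319, limma) and at 2 hrs (0.29, unadjusted p = 0.00596, adjusted p = 0.236). Its replicates were at 0.22 and 0.37 at 30 min and at 0.19 and 0.39 at 2 hrs. By orientation *CHD3* was at −0.01 with laser cDNA in Cy3 and 0.60 with laser cDNA in Cy5 at 30 min, and at 0.35 and 0.23 at 2 hrs. Without replicate 2 it was at 0.22 at 30 min (unadjusted p = 0.105) and 0.19 at 2 hrs (unadjusted p = 0.135). *CHD4*, the other such ATPase on the array, was between −0.11 and 0.04. The histone deacetylases *HDAC1* and *HDAC2* and the NuRD members *MTA1* and *MTA1L1* (now *MTA2*) did not pass. The median of the 23 genes was 0.01, −0.02, −0.02 and −0.04 in the order of time.

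Of 38 tested factors of inner ear development, a list likewise chosen with earlier results known, 3 passed the unadjusted threshold. *NEUROG1*, needed for the neurons of the inner ear in the mouse, had a ratio above 0 at 30 min (0.56, standard error 0.0976, unadjusted p = 6.49e-05, adjusted p = 0.0685, limma), with replicates at 0.54 and 0.57. Its orientations were at 0.48 (laser cDNA in Cy3) and 0.63 (laser cDNA in Cy5). *PAX2*, an early marker of the ear placode, had a ratio below 0 at 2 hrs (−0.31, standard error 0.0905, unadjusted p = 0.00464, adjusted p = 0.216, limma), with replicates at −0.46 and −0.15 and orientations at −0.59 (Cy3) and −0.03 (Cy5). Without replicate 1 of that time it was at −0.15 (unadjusted p = 0.184). *BARHL1*, a homeobox gene of hair cells in the mouse, had a ratio below 0 at 2 hrs (−0.35, standard error 0.0777, unadjusted p = 0.00062, adjusted p = 0.209, limma), with replicates at −0.38 and −0.31 and orientations at −0.37 (Cy3) and −0.32 (Cy5). The median of the 38 genes was 0.01, 0.01, −0.05 and −0.02. Of all 66 tested genes of the 3 lists, 4 passed at some time, a share of 6.06%, which lies near the 8.31% of all genes.

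**Figure D4:**
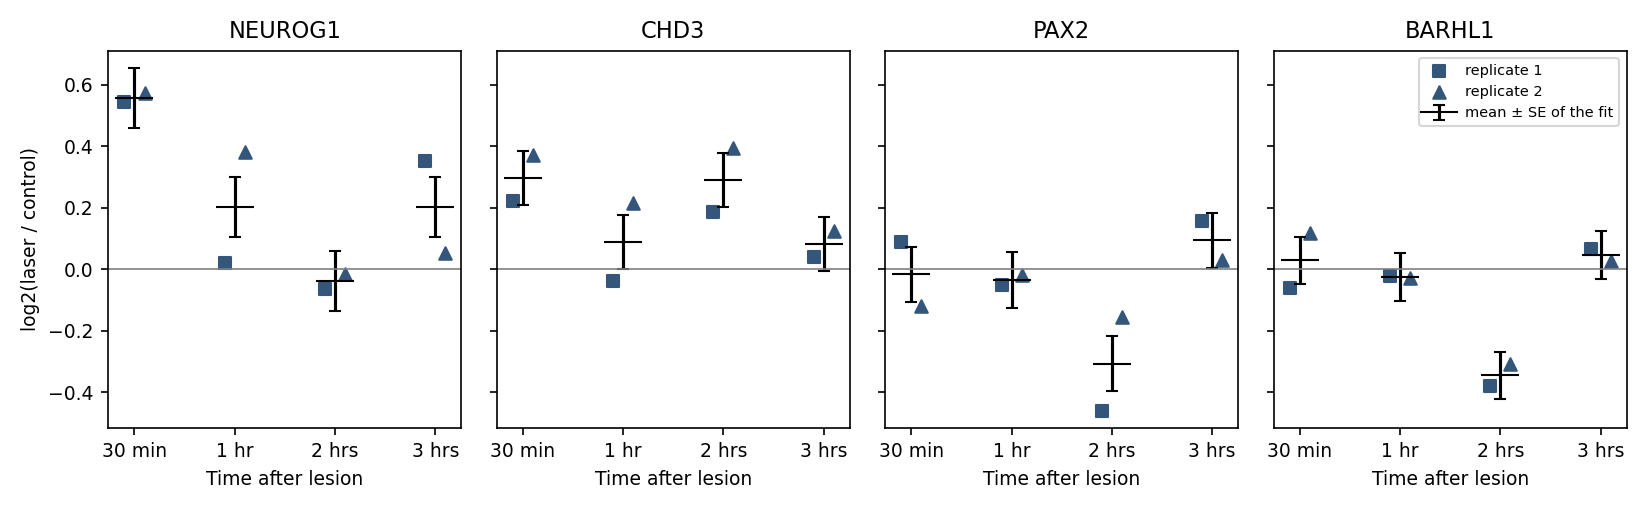
Laser over control log2 ratios of the 4 list genes that passed an unadjusted p under 0.05 with over 1.2-fold at some time. Squares and triangles are biological replicates 1 and 2, and bars with whiskers are the mean and standard error of the fit. *NEUROG1* stands at 0.56 at 30 min, *CHD3* at 0.30 and 0.29 at 30 min and 2 hrs, and *PAX2* and *BARHL1* at −0.31 and −0.35 at 2 hrs.

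Some genes of the lists also had a dye effect, against 39.2% of all tested genes. *GATA4* was lower in Cy5 (−0.20, adjusted p = 0.0109, limma), and *GATA1* (0.03), *GATA2* (−0.11), *GATA6* (0.11) and *TRPS1* (−0.01) did not pass. Among the partners 7 of 23 were lower in Cy5 and 0 higher, with *LMO1* at −0.74 (adjusted p = 3.33e-06, limma) and *TCF3* at −0.36 (adjusted p = 0.00043, limma). Among the 38 inner ear factors 10 were lower in Cy5 and 7 higher. Of all tested genes with a dye effect, 296 were lower and 293 higher in Cy5.

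The profiles of *GATA3* and *FOG2* over the 8 replicates were not alike (Pearson r = −0.224, Spearman rho = −0.619). Over the 16 means by orientation the sign of r for this pair was the other way (0.254). The genes most like *GATA3* were *THRB*, a thyroid hormone receptor (r = 0.89), *CREBBP*, a histone acetyltransferase and coactivator (r = 0.854), and *MSX2*, a homeobox gene (r = 0.852). Those most like *FOG2* were *TBX19*, a T-box factor of the pituitary (r = 0.938), *NR4A1*, an orphan nuclear receptor (r = 0.922), and *LOC57862* (r = 0.911). These are the highest of 1503 values over 8 points, and the tenth highest was still 0.828 for *GATA3* and 0.861 for *FOG2*. Over the 16 means by orientation, r was 0.59, 0.744 and 0.691 for the 3 genes most like *GATA3*, and 0.111, 0.137 and −0.02 for those most like *FOG2*. At 3 hrs *TBX19* was at 0.10, *NR4A1* at 0.04 and *LOC57862* at 0.23, against 0.53 for *FOG2*.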

How the data were processed

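The authors deposited, for each channel of 77 two-colour arrays, the mean intensity of each spot and the intensity of the background around it, not corrected or normalized, and 1 table of log2 ratios that equals the raw signal ratio turned to laser over control. That table was used only as an alternative; no spot was marked as poor and no column of values was left out. Normexp (offset 50) and 1 loess curve per array, with 27 control names at weight 0, were run with limma 3.58.1 (R 4.3.3). Duplicate spots of a gene, arrays of an orientation, and both orientations were averaged to 8 replicate values. Genes under a mean signal of 1000 at every time point (3) were left out. Time points share 1 pooled spread (prior degrees of freedom 9.3). With 2 biological replicates each, the number of replicates rather than of arrays limits the precision of the fits. Benjamini-Hochberg adjustment ran over 1504 genes.

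The members and lists were chosen with earlier results of these data known. Named are both members, list genes with an unadjusted p under 0.05 and over 1.2-fold at a time point, and the 3 genes with the highest r to each member; other genes named from the lists or markers were picked after their values were seen. The replicate numbers 1 and 2 were checked for pairing across time points. Differences between replicates correlated at −0.25 to 0.17 for laser over control, −0.02 to 0.17 for the dye effect and −0.2 to 0.21 for the control level, so no pairing was assumed. The background correction, normalization, averaging and fits were run on simulated spots, and the fit of levels on simulated levels. The reading of the files, the lists, the markers, the alternatives and the figures were not tested in this way. Alternatives changed the background correction, normalization, averaging, spots, filter, test, blocks and replicates 1 at a time; the values by day were added after seeing the data. A gene of the lists is counted but not reported by name here. The selection of hybridizations made in the study and the probe sequences are not used here.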

Additional observations from a re-analysis of the deposited data

Results flagged for a closer look

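The laser over control ratio of *FOG2* differed between 3 hrs and 2 hrs by 0.852 on the log2 scale (0.531 at 3 hrs, −0.322 at 2 hrs). It was flagged because both replicates were above 0 at 3 hrs and both below 0 at 2 hrs. Replicate 1 at 2 hrs was only at −0.03, with opposite signs in its orientations. The 2 hr and 3 hr arrays share no day of image analysis, so time and day cannot be told apart here. The difference was not tested, since *FOG2* was chosen with these ratios known. By Dixon's criterion, 0 of 28 sets of arrays of *GATA3* or *FOG2* were marked. Each set was of 1 replicate and 1 orientation, with 4 or more arrays. Smaller sets, which were all at 2 hrs, were not examined. An unmarked set can still hold an array apart from the others. In the unmarked Cy5 orientation of replicate 2 at 3 hrs, *GATA3* read 0.38 on 1 array and −0.53, −0.71 and −0.98 on the others.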

How the results depend on the processing

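The ratios of *GATA3* and *FOG2* moved with dye orientation and with the replicate left out. With only the laser RNA in Cy3, *GATA3* was at 0.25 at 30 min and 0.30 at 3 hrs and *FOG2* at 0.38 at 1 hr; with only Cy5 they were at −0.285, −0.43 and −0.33; with no array turned at −0.26, −0.37 and −0.35, and *FOG2* at −0.20 at 3 hrs. Plain background subtraction put *GATA3* at −0.23 at 2 hrs, and the deposited table put *FOG2* at 0.19 at 3 hrs. Without 1 replicate, *GATA3* ran from −0.30 to 0.15 at 1 hr and *FOG2* from −0.62 to −0.03 at 2 hrs and from 0.20 to 0.87 at 3 hrs, more than between orientations (−0.17 and −0.48 at 2 hrs, 0.73 and 0.33 at 3 hrs). The cause was not tested.

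The dye effect of *GATA3* lost its call with plain subtraction (−0.0824), no background correction (−0.0873) and the deposited table (0.11), and that of *FOG2* with the table (−0.0029) and the day block (−0.21). Adjusted p ran from 0.00193 to 0.536 for *GATA3* and from 7.68e-05 to 0.968 for *FOG2* over 20 alternatives each. At single times, *GATA3* at 2 hrs changed sign with plain subtraction (0.0399), no correction (0.0679), median centring (0.0358) and the table (0.26), and at 3 hrs with plain subtraction (0.0031) and the table (0.27); *FOG2* did with the table at 2 hrs (0.15) and 3 hrs (0.0918). The call of *GATA3* at 3 hrs was kept in 13 of 20 alternatives and that of *FOG2* at 1 hr in 9. The count of all genes with a dye effect, 589 as reported, was 342 without replicate 2 of 3 hrs, 362 with the day block, 901 with median centring and 1158 with the table; that with a difference between times, 2 as reported, ran from 0 to 35.

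The control levels kept their side of the threshold in all 15 alternatives of each gene. Of the list genes, 4 passed as reported, 2 with no background correction, 34 with no array turned and 5 to 8 without 1 replicate; over all genes the count was 125 as reported, 45, 666 and 136 to 270. The methods' t-test gave 3 list genes and 79 genes in all, of which 1 and 2 passed after Benjamini-Hochberg adjustment. That test ran over single arrays and so counts repeat hybridizations of the same replicates as independent. Its counts therefore do not measure the spread between biological replicates. With no array turned, *CHD3* was at −0.0234 and *BARHL1* at 0.0126 at 2 hrs and *PAX2* at 0.30, and *NEUROG1* was at 0.0978 at 30 min. These values, and the 34 and 666 genes that passed with no array turned, are of Cy5 over Cy3 and not of laser over control. With the replicate block, which changed no call, the dye effects were −0.21 (adjusted p = 0.00479, limma) and −0.23 (0.00175), and 4 list genes passed. A signal of at least 1000 in 80% of arrays held for *GATA3* at 2 of 4 time points and for *FOG2* at 4, and for *GATA3* at 1 against the control spots and *FOG2* at 3 with a minimum of 1200.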
